A study of Mus musculus and Homo sapiens with 11 samples.

Results

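The 45 genes described here make, lengthen, desaturate, take up, activate, store and burn fatty acids. They were chosen by symbol from the 24062 genes listed for a mouse mammary tumour line, and all 45 were found. By role, 14 belong to synthesis (5 to de novo synthesis, 9 to desaturation and elongation), 17 to storage (9 to uptake and activation, 8 to the making and lysis of lipid droplets), 11 to oxidation and 3 to its regulators. The RNA came from cultured MMTV-ErbB2 breast cancer cells, named for a transgene in which the mouse mammary tumour virus promoter drives the receptor tyrosine kinase ErbB2. The parental line and the brain metastatic derivative BrM 2a, called BrM in what follows, were each sequenced in 3 libraries. Both groups carry the same name of the line, and the labels give no drug treatment, no age and no further allele. BrM is a single derivative, so a difference between the groups is a difference between these 2 lines of cells. Another 5 libraries of the series, from the human line HCC1954, were not analysed here.

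Cells build fatty acids from cytosolic acetyl-CoA. ATP citrate lyase (Acly) makes the acetyl-CoA, acetyl-CoA carboxylases turn it into malonyl-CoA, and fatty acid synthase (Fasn) joins the units into palmitate with NADPH, part of which comes from malic enzyme (Me1). Elongases and desaturases then set the length and the double bonds, acyl-CoA synthetases activate the free acid, and the product goes to membranes, to triglyceride droplets or, through the carnitine shuttle, to the mitochondria for beta-oxidation. Lipogenesis is an established feature of mammary epithelium, which makes milk fat, and of tumours driven by ErbB2. The brain takes up little lipid from the blood, and fatty acid synthesis has been studied in breast cancer cells that grow there.

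Reads assigned to genes numbered 39304974 to 46683735 in the parental and 29877087 to 39106969 in the BrM libraries, and values here are read counts scaled per library by the authors. Genes that averaged at least 10 over the 6 libraries were tested on log2 of the value plus 1, 13821 in all, 43 of the 45 members among them. A gene is said to have risen or fallen where its Benjamini-Hochberg adjusted p from limma was under 0.05, and each 95% interval is for that gene alone, unadjusted. Fold changes are differences of means on that log2 scale, so they can differ from the ratio of the printed means. BrM replicate 1 stood apart. It differed at least 2-fold from BrM replicates 2 and 3 in 3614 and 3654 genes, against 220 between replicates 2 and 3 and 976 to 1683 between parental libraries, and no label sets it apart. Between BrM replicates 2 and 3, 35.4% of 11533 genes differed beyond counting error, where counting error alone gives 5%. The same reads were therefore not counted again, but whether 1 library was run again was not tested. Whether the 3 libraries of a group were grown apart is not in the labels, so the p-values speak only of how far libraries of a group lie apart, and that spread could be technical. The labels name 2 library kits and 2 culture media without assigning them, so that kit, medium and line cannot be told apart.

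Markers checked the label of the cells. The 6 genes of mammary epithelium, Epcam, Krt8 and Krt18 among them, summed to 102177 to 112683 in parental and 162138 to 184680 in BrM libraries, with 3 higher and 1 lower in BrM. Of 7 adipocyte markers, leptin (Lep) was at 0 in all 6 libraries and 5 stayed under 10 in all, Adipoq, Plin1 and Cidec among them. The list summed to 16.5 to 49.1 in parental and 309 to 356 in BrM libraries. Both adipocyte markers tested were higher in BrM, the glucose transporter Slc2a4 (10.7-fold, adjusted p 0.00224) and Retn (20.0-fold, adjusted p 0.0136), and Retn rests on 2 reads in parental. Fibroblast markers summed to 1565 to 5893 in parental and 209 to 995 in BrM libraries, with 3 of 5 tested lower. Of these 7, Lum was at 0 in all libraries, Dcn was at 0 in BrM, and Pdgfrb read 2765, 3683 and 1002 in parental replicates 1 to 3 against 0, 0.956 and 3.73 in BrM. Endothelial markers summed to at most 54.9 in any library. The 6 brain markers summed to 1003 to 1338 in parental and 2211 to 2333 in BrM libraries, and 2 of 3 tested were higher, Gfap (4.31-fold, adjusted p 0.00637) and Mbp (1.82-fold, adjusted p 0.00895), while Aqp4, Rbfox3 and Snap25 stayed under 10 in all libraries. Of 6 macrophage markers listed, Ptprc, Emr1 and Itgam stayed under 10 in all libraries, and the list summed to 227 to 952 in parental and 450 to 3002 in BrM libraries. Csf1r of that list read 2.04, 1.65 and 18.9 in parental and 319, 254 and 230 in BrM (49.1-fold higher, adjusted p 0.00370). The part of other cells in the members' differences was not tested.

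The genes of fatty acid metabolism were called in both directions. Of the 43 members tested, 2 rose in BrM (the desaturase gene Fads3 and the carnitine acyltransferase Cpt2), 7 fell (Me1, Elovl5, Lpl, Fabp4, Acsl1, Acadm and Ppargc1a), and 34 did not pass. Members called made 20.9%, where 28.1% of all tested genes were called. By direction, 4.65% of members rose against 12.2% of all genes, and 16.3% fell against 15.8%. The groups did not overlap for 17 members, 5 higher and 12 lower in BrM, where 48.0% of all tested genes did not overlap, 22.3% higher and 25.7% lower. The median log2 difference of members was −0.29, beside −0.05 for all genes tested. Synthesis had 1 member higher and 2 lower of 14, storage 0 higher and 3 lower of 15 tested, oxidation 1 higher and 1 lower of 11, and the regulators 1 lower of 3. The median log2 differences of these classes were −0.30, −0.63, −0.08 and −0.48. Without BrM replicate 1 the call was made for 27 members, 8 higher and 19 lower, all 9 named above among them. Calls over all 13821 genes grew too, from 3881 to 6519. The 18 members gained were Acaca, Acads, Acly, Acsl5, Fads2 and Fasn as higher, and Acadvl, Cpt1a, Dgat1, Dgat2, Elovl6, Fabp5, Fads1, Hadh, Plin3, Pnpla2, Scd1 and Slc25a20 as lower.

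**Figure D1:**
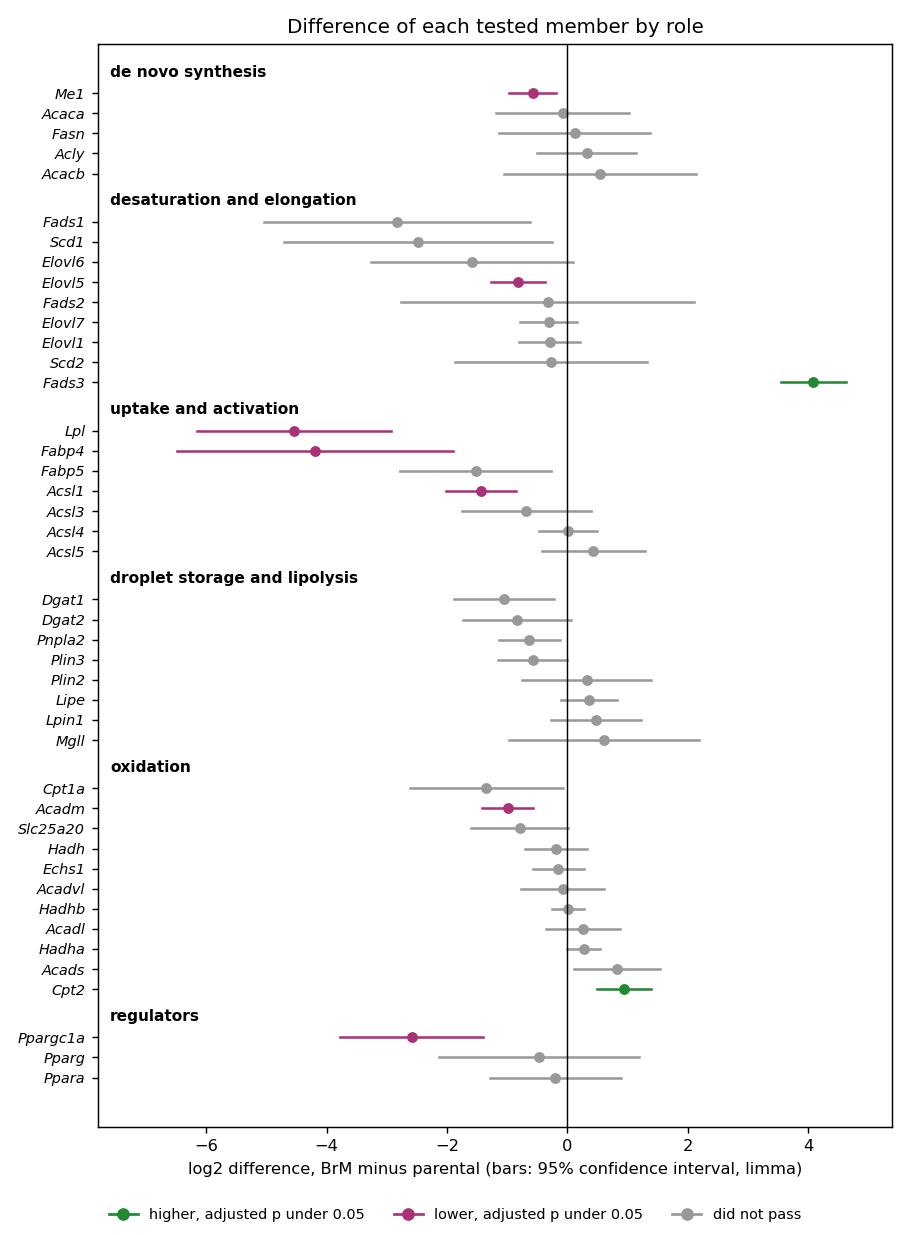
Log2 difference between BrM and parental libraries (horizontal axis) for each of the 43 members tested, grouped by role, with bars for the 95% confidence interval of limma. The 2 members that rose are green, the 7 that fell are magenta, and the long grey bars of Fads1, Scd1, Fads2 and Scd2 show how wide the intervals of the desaturases were.

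**Figure D2:**
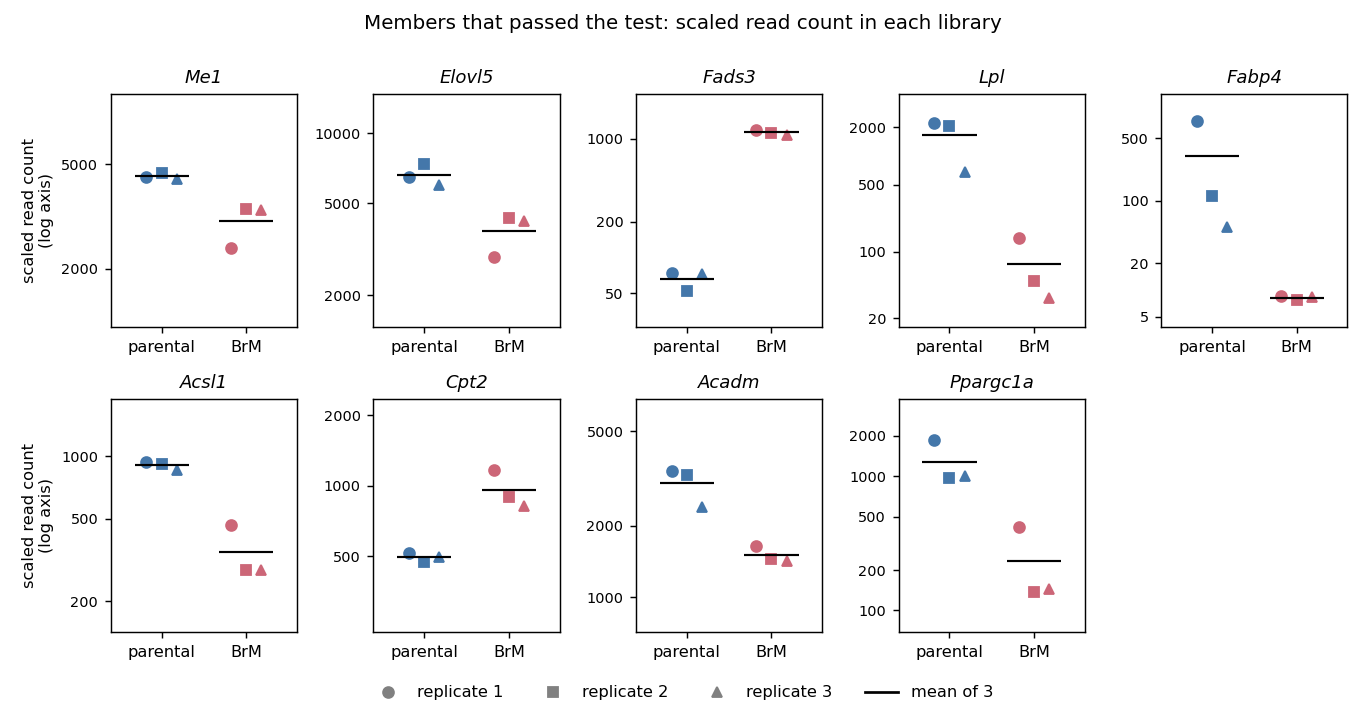
Scaled read count (log axis) of the 9 members that passed the test, in each parental (blue) and BrM (red) library, with a line for the mean of 3. The groups do not overlap for any of the 9, and Fads3 has the 3 BrM libraries between 1079 and 1191 against 51.9 to 74.3 in parental.

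Of the 5 enzymes of de novo synthesis, Me1 fell and the other four did not pass. Me1 (malic enzyme, chr9:86581371-86695953, GRCm38) read 4489, 4628 and 4398 in parental replicates 1 to 3 and 2407, 3395 and 3353 in BrM replicates 1 to 3. All BrM libraries lay below all parental ones, and the fall was 1.49-fold (log2 −0.58, SE 0.16, adjusted p 0.0414). This was the weakest call, lost in 8 of 18 alternatives, edgeR (0.0564) and leaving out parental replicate 2 (0.129) among them. Of the 50-base windows of Me1 exons, 28.3% also occur in other genes, most often in the predicted Gm7049. Fasn, the synthase itself, read 16882, 18787 and 25084 in parental and 9103, 31662 and 35394 in BrM. The parental libraries thus lay between BrM replicate 1 and the other BrM libraries, and the log2 difference was 0.12 (95% interval −1.13 to 1.37, adjusted p 0.886). Acly showed the same arrangement, with 10802, 12198 and 16855 in parental and 9776, 20397 and 21763 in BrM (log2 0.32, SE 0.34, adjusted p 0.523). So did the carboxylase Acaca, with 5599 to 7561 in parental, 2866 in BrM replicate 1 and 8732 and 9681 in the other BrM libraries (adjusted p 0.916). Of the exon windows of Acaca, 30.4% also occur in other genes, most often in Gm5182. Its mitochondrial isoform Acacb, whose malonyl-CoA restrains fatty acid import into mitochondria, went the other way in that library, at 881 against 209 and 214, with 126 to 344 in parental (adjusted p 0.584).

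Desaturation and elongation held the member that rose most and some of the widest spreads. Fads3 lies in a cluster of desaturase genes on chromosome 19, at chr19:10041569-10060110 on the plus strand, next to Fads2 (chr19:10062765-10101746, minus strand) and near Fads1 (chr19:10182888-10196877, plus strand). Fads2 and Fads1 encode the delta-6 and delta-5 desaturases of polyunsaturated fatty acids, and Fads3 a relative that acts on sphingoid bases. The promoters of Fads3 and of its neighbour Fads2 are shown because the pair differed in its behaviour between libraries, and that of Fasn because it is a classic target of the lipogenic factor SREBP with its cofactor NF-Y. Each is 300 bases from RefSeq (GRCm38.p6), from 250 before to 50 after the start, 5′ to 3′ on the gene's strand, with the CCAAT box of NF-Y or its reverse complement in capitals. They span chr19:10041298-10041597 (plus strand) for Fads3, chr19:10101454-10101753 (minus strand) for Fads2 and chr11:120824498-120824797 (minus strand) for Fasn.
Fads3: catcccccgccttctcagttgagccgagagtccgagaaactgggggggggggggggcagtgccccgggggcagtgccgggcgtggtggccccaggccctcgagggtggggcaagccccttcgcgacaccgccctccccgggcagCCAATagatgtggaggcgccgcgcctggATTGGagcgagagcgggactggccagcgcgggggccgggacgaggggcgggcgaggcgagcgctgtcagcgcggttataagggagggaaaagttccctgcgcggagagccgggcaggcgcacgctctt
Fads2: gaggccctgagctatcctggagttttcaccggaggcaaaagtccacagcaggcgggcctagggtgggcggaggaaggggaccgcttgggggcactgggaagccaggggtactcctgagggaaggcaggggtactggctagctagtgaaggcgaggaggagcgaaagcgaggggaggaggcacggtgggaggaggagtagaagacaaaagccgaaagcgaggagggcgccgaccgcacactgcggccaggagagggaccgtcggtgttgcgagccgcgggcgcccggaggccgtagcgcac
Fasn: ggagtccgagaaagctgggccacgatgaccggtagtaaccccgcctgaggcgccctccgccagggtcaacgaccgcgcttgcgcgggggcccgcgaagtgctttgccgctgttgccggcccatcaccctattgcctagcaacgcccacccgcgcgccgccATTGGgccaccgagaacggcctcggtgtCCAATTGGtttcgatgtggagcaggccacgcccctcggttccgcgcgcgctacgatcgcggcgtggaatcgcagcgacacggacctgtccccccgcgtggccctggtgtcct
The Fads3 window holds 2 CCAAT boxes, that of Fasn 3, of which 2 overlap, and that of Fads2 0. Searched on both strands in the 37 members with a promoter in the table, CCAAT occurred in 13 (35.1%), beside 37.9% of all 27025 promoters of that length. The sterol response element TCACNCCAC occurred in 0 of 37 (1.22% of all promoters), and the E-box CACGTG in 4 (10.8%, against 7.24%). These are matches of letters in a window and do not show binding.

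Fads3 read 74.3, 51.9 and 72.7 in parental and 1191, 1120.0 and 1079 in BrM. The BrM libraries, replicate 1 included, lay close together and far above parental, a 17.0-fold rise (66.3 ± 12.5 to 1130.3 ± 56.7, SD, n = 3; log2 4.09, SE 0.23, adjusted p 0.000152), called in all 18 alternatives. Its neighbour Fads2 read 1622, 2107 and 1869 in parental, and 248 in BrM replicate 1 against 3631 and 3568 in replicates 2 and 3. Fads2 was therefore lowest and highest within the same group, and its difference was not resolved (log2 −0.33, 95% interval −2.77 to 2.11, adjusted p 0.837). Without BrM replicate 1 it rose 1.94-fold (adjusted p 0.00246), and edgeR and DESeq2 on all libraries gave log2 0.43 each, with adjusted p of 0.739 and 0.718. Fads1 read 4770, 3986 and 2880 in parental and 107, 1213 and 1157 in BrM. All BrM libraries were below parental, with BrM replicate 1 lowest by 10.9-fold, and limma gave a log2 difference of −2.83 (SE 0.92, adjusted p 0.0631), or −1.68 without that library (adjusted p 0.00175). Within the cluster, then, Fads3 rose, Fads1 had non-overlapping lower values that did not pass, and Fads2 overlapped.

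Stearoyl-CoA desaturases introduce the double bond of oleate, and none of the 4 genes tested passed. The members among them are Scd1 and Scd2. Scd2 had the highest level per kilobase of exon of all members, 8306 scaled reads in parental and 8245 in BrM. It read 42878, 63187 and 30088 in parental and 12188, 61134 and 61825 in BrM, so that the groups overlapped (log2 −0.27, SE 0.67, adjusted p 0.791). Scd1, its neighbour at chr19:44394455-44407879, read 22442, 24878 and 15482 in parental and 731, 7914 and 8472 in BrM. The BrM libraries were all lower, but BrM replicate 1 was 11.2-fold under the other BrM libraries, and the difference did not pass (log2 −2.49, SE 0.93, adjusted p 0.0927). It passed without that library (2.51-fold lower, adjusted p 0.00405). Scd3 and Scd4, no members, had few reads, with 72.8 ± 12.2 against 96.3 ± 32.4 (adjusted p 0.485) and 27.0 ± 1.32 against 13.7 ± 6.56 (adjusted p 0.149). Exon windows shared with other genes made 4.56% of Scd1 and 3.97% of Scd2, most often shared between the pair.

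Of the elongases, Elovl5, which lengthens polyunsaturated acids, fell, and Elovl6, which takes palmitate to stearate, was lower without passing. Elovl5 (chr9:77917364-77984519) read 6465, 7383 and 5979 in parental and 2917, 4295 and 4166 in BrM, a fall of 1.76-fold (log2 −0.82, SE 0.19, adjusted p 0.0201). The call was lost without parental replicate 1 (0.0642) or 2 (0.0804). Elovl6 read 5365 to 5969 in parental, 551 in BrM replicate 1, and 3257 and 3656 in the others (adjusted p 0.141). Its groups did not overlap. Elovl1 and Elovl7, elongases of very long and long chains, overlapped between groups, with log2 differences of −0.29 (adjusted p 0.340) and −0.31 (adjusted p 0.293).

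**Figure D3:**
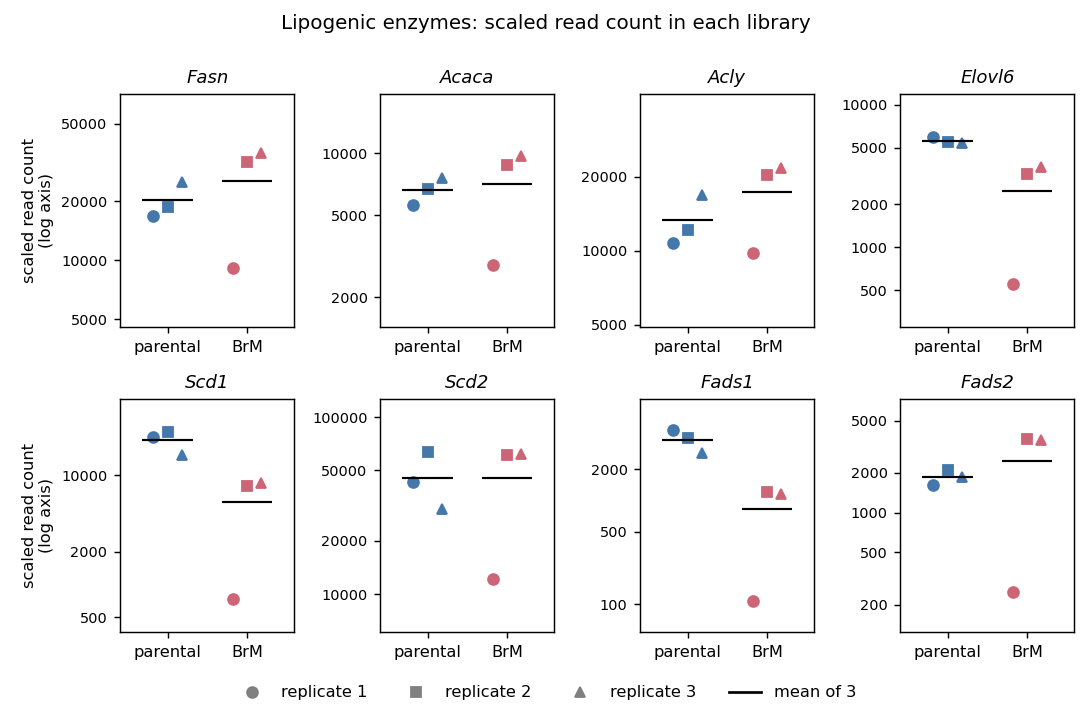
Scaled read count (log axis) of 8 enzymes of fatty acid synthesis, elongation and desaturation in each parental (blue) and BrM (red) library, with a line for the mean of 3. The 8 are the synthesis members at least 2-fold lower in BrM replicate 1 than the mean of replicates 2 and 3, chosen after their values were seen. BrM replicate 1 (circle) is the lowest of the 6 libraries for each of the 8, while BrM replicates 2 and 3 lie above every parental library for Fasn, Acaca, Acly and Fads2 and below every one for Elovl6, Scd1 and Fads1. Of the synthesis members not drawn, Me1, Elovl1 and Elovl5 were also lowest in BrM replicate 1, Acacb and Fads3 were highest in it, and Elovl7 was neither.

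The 2 largest falls among the members were in genes of fatty acid uptake and transport. Lpl, the lipoprotein lipase that frees fatty acids from circulating lipoproteins, lies at chr8:68880491-68907448 and read 2211, 2042 and 670 in parental and 139, 49.7 and 32.6 in BrM. Every BrM library was below every parental one, and the fall was 23.3-fold (1641 ± 845 to 73.8 ± 57.2, SD, n = 3; log2 −4.54, SE 0.67, adjusted p 0.00428), or 35.1-fold without BrM replicate 1. Fabp4, a fatty acid binding protein best known from adipocytes and macrophages, lies at chr3:10204088-10208576 and read 789, 114 and 51.0 in parental and 8.54, 7.65 and 8.38 in BrM. Its fall was 18.3-fold (log2 −4.19, SE 0.95, adjusted p 0.0200), but the parental libraries spread widely and the BrM level rests on 24 reads. Leaving out parental replicate 1 gave 8.44-fold, and leaving out parental replicate 3 gave 32.9-fold. The call was lost without parental replicate 2 (0.0579), BrM replicate 2 (0.0620) or BrM replicate 3 (0.0581). The macrophage marker Lyz2 was also highest in parental replicate 1, at 353 against 6.59 and 6.61 in the other parental libraries and at most 2.44 in BrM. Its list did not move as one. Of the 3 macrophage markers tested, Lyz2 and Cd68 did not pass (limma adjusted p 0.0935 and 0.637), and Csf1r was 49.1-fold higher in BrM. The fibroblast marker sum, like Lpl, was lower in every BrM library than in any parental one, but that list did not move as one either. Of the 5 fibroblast markers tested, Col1a2, Dcn and Pdgfrb fell. Col1a1 and Pdgfra overlapped between the groups and did not pass (limma adjusted p 0.522 and 0.332). The part of macrophages or fibroblasts in the falls of Lpl and Fabp4 was not tested. In RNA of whole cultures, fewer cells of a kind and less RNA per cell cannot be told apart.

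Of the enzymes that activate fatty acids to acyl-CoA, 1 of 4 fell. It was Acsl1, an acyl-CoA synthetase tied to triglyceride synthesis and oxidation (chr8:46471037-46536051), which read 945, 916 and 857 in parental and 468, 283 and 283 in BrM. It fell 2.70-fold (log2 −1.43, SE 0.24, adjusted p 0.00717). Acsl4, which prefers arachidonate and had the highest level per kilobase of exon among the 4 synthetases, read 29676, 23847 and 27140 in parental and 20629, 30563 and 30895 in BrM. Its log2 difference was 0.01, with an interval of −0.48 to 0.49 (adjusted p 0.982). Acsl5, a mitochondrial and microsomal synthetase, read 14703, 12159 and 14933 in parental and 10359, 25483 and 24822 in BrM (log2 0.43, adjusted p 0.411). Acsl3, which acts on nascent lipid droplets, spanned 2730 to 4326 in parental and 995 to 2992 in BrM (adjusted p 0.299). Fabp5, the epidermal binding protein, spanned 8387 to 17617 in parental and 1879 to 6509 in BrM without overlap, and did not pass (log2 −1.53, SE 0.53, adjusted p 0.0737). The scavenger receptor Cd36, the best known fatty acid translocase, had 1 read in all of parental and 6 in all of BrM, and the heart-type binding protein Fabp3 had 13 and 35, so neither reached the expression filter.

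None of the 8 members of droplet storage and lipolysis passed the limma test. The groups did not overlap for 2 of the 8, where they did not for 48.0% of all tested genes. Plin2, which coats droplets of most cells, read 9392, 2735 and 4364 in parental and 7975, 5257 and 5229 in BrM (log2 0.32, SE 0.45, adjusted p 0.629). Plin3 read 6184, 4304 and 3668 in parental and 3892, 2730 and 2767 in BrM (log2 −0.58, SE 0.24, adjusted p 0.123). The spread between parental libraries thus covered the BrM values of Plin2. Both acyltransferases that complete triglycerides had lower means in BrM, Dgat1 with 2198 ± 675 against 1082 ± 445 (adjusted p 0.0659) and Dgat2 with log2 −0.84 (adjusted p 0.142). Among lipases, adipose triglyceride lipase (Pnpla2) ran from 3410 to 5201 in parental and 2319 to 3221 in BrM without overlap (log2 −0.63, adjusted p 0.0708). Hormone-sensitive lipase (Lipe) ran the other way, from 278 to 351 in parental and 380.0 to 443 in BrM (log2 0.36, adjusted p 0.218). Monoacylglycerol lipase (Mgll) was at 955 in BrM replicate 1 and at 169 to 227 in the other 5 libraries (adjusted p 0.526). Lpin1, the phosphatidate phosphatase that supplies diacylglycerol, had a log2 difference of 0.48 (adjusted p 0.301). Without BrM replicate 1, Dgat1, Dgat2, Pnpla2 and Plin3 passed as lower, while calls over all genes grew from 3881 to 6519.

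Mitochondrial oxidation was split between a carnitine enzyme that rose and a dehydrogenase that fell. Long-chain acids enter as carnitine esters made by Cpt1a, cross with the carrier Slc25a20, and are returned to CoA by Cpt2. Cpt2 (chr4:107903981-107923610) read 517, 475 and 497 in parental and 1173, 894 and 823 in BrM, a rise of 1.92-fold (496 ± 20.9 to 964 ± 185, SD, n = 3; log2 0.94, SE 0.19, adjusted p 0.0127). This call was lost without parental replicate 2 (0.0540). Cpt1a, the rate-limiting entry step, spanned 2361 to 3581 in parental and read 2797, 686 and 813 in BrM. BrM replicate 1 was at the parental level and the other BrM libraries below it, so that the difference did not pass (log2 −1.35, SE 0.53, adjusted p 0.105), and without BrM replicate 1 it was 3.96-fold lower (adjusted p 0.000706). Slc25a20 spanned 764 to 1007 in parental and 386 to 832 in BrM (log2 −0.79, adjusted p 0.124). The 3 steps of the shuttle therefore had 1 member higher, and 2 with lower group means that did not pass.

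Acyl-CoA dehydrogenases open each cycle of beta-oxidation and are named by the chain length they prefer. Acadm (medium chain, chr3:153922357-153944632) read 3411, 3285 and 2397 in parental and 1645, 1452 and 1422 in BrM. It fell 1.99-fold (3031 ± 552 to 1506 ± 121, SD, n = 3; log2 −0.99, SE 0.17, adjusted p 0.00805), in all 18 alternatives. Acadl (long chain), with the highest level per kilobase of exon in the oxidation class, read 9700.3, 8051 and 7354 in parental and 14477, 8650.4 and 7779 in BrM (log2 0.25, SE 0.26, 95% interval −0.36 to 0.87). Acads (short chain) had higher values in every BrM library, 2385 to 4669 against 1380 to 1943, without passing (log2 0.82, SE 0.30, adjusted p 0.0850). Acadvl (very long chain) overlapped (log2 −0.08, adjusted p 0.859), and 26.9% of its exon windows also occur in other genes, most often in Dvl2 on the other strand. Of the 4 dehydrogenases, then, only Acadm passed. Of the later steps, the alpha subunit of the trifunctional protein, Hadha, read 5344, 4907 and 4545 in parental and 6089, 5968 and 5785 in BrM (log2 0.27, SE 0.11, adjusted p 0.125). Its partner subunit Hadhb differed by log2 0.01, with an interval of −0.25 to 0.28 (adjusted p 0.934). Of the exon windows of Hadhb, 19.7% also occur in other genes, most often in Gm13910. Hadh and the hydratase Echs1 overlapped between groups, at log2 −0.19 and −0.15 (adjusted p 0.550 and 0.555).

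Among the regulators, Ppargc1a, the coactivator PGC-1alpha of mitochondrial and oxidative genes, fell. It lies at chr5:51454250-51567726 and read 1881, 969 and 1010.3 in parental and 416, 138 and 145 in BrM. The groups did not overlap, and the fall was 6.02-fold (1287 ± 515 to 233 ± 159, SD, n = 3; log2 −2.59, SE 0.50, adjusted p 0.0111), called in all 18 alternatives. Neither of the nuclear receptors among the members passed. Pparg, the adipogenic receptor, read 169, 65.1 and 34.9 in parental and 25.6, 77.5 and 70.8 in BrM (log2 −0.48, SE 0.69, adjusted p 0.645). Ppara, the receptor of oxidative genes in liver, stayed between 6.61 and 15.3 in all 6 libraries (adjusted p 0.776).

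The members also differed within BrM, between libraries that carry the same label. Of the 43, 12 were at least 2-fold lower in BrM replicate 1 than the mean of replicates 2 and 3 (27.9%, where 9.83% of all tested genes were) and 7 at least 2-fold higher (16.3%, where 16.2% were). The lower ones lay mainly in synthesis, with 8 of 14, against 3 of 15 in storage, 1 of 3 regulators and 0 of 11 in oxidation. The largest gaps were those of Fads2 (14.5-fold), Scd1 (11.2-fold), Fads1 (10.9-fold), Elovl6 (6.27-fold), Scd2 (5.04-fold), Fasn (3.68-fold), the storage member Fabp5 (3.35-fold) and Acaca (3.21-fold). Higher in that library were Mgll (5.26-fold), Acacb (4.15-fold), Cpt1a (3.73-fold), Lpl (3.32-fold), Ppargc1a (2.93-fold), Slc25a20 (2.15-fold) and Acadvl (2.01-fold). With 1 library on one side there is no test of this difference, and these counts describe the libraries. Insig1, a sterol-regulated gene of the same circuit that is no member and was picked after its values were seen, had the same shape, with 5919, 5368 and 3632 in parental and 946, 8377 and 8271 in BrM. The SREBP genes themselves were lowest in BrM replicate 1, Srebf1 with 3796 against 6867 and 7277, and Srebf2 with 3385 against 8504 and 9330, and neither passed between the groups (adjusted p 0.166 and 0.174). Depth moved with it too, at 29877087 reads in that library, the lowest of the 6, and so did the macrophage marker Cd68, at 2670 against 195 to 594 elsewhere. The other macrophage markers did not stand out there. Csf1r read 319 in BrM replicate 1 against 254 and 230 in replicates 2 and 3, and Ptprc, Emr1, Lyz2 and Itgam stayed under 10 in every BrM library. The part of depth, kit, medium or other cells was not tested.

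**Figure D4:**
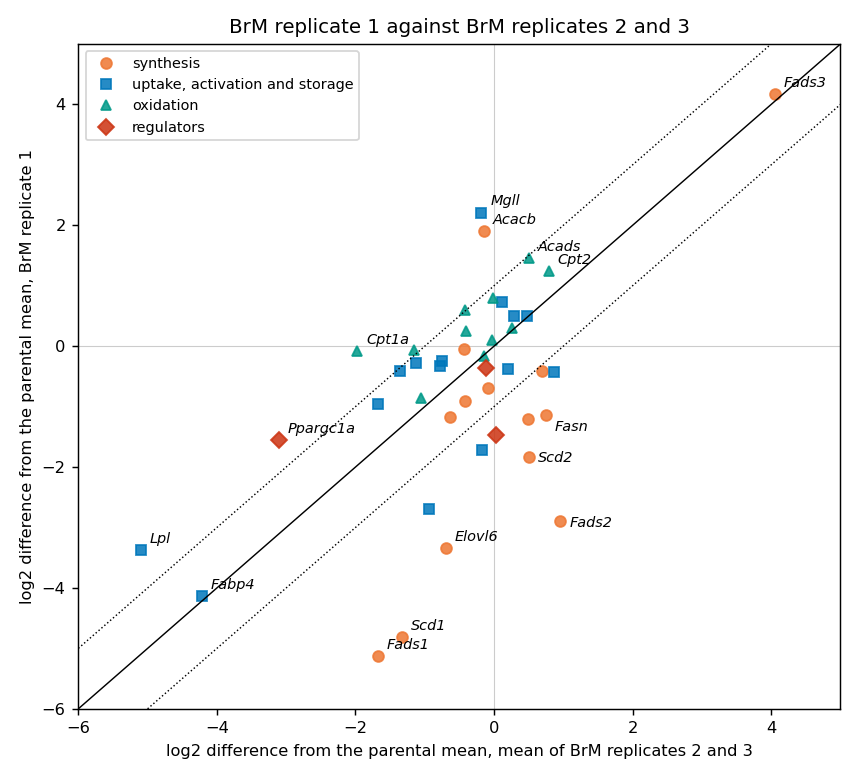
Log2 difference from the parental mean in BrM replicate 1 (vertical axis) against that of the mean of BrM replicates 2 and 3 (horizontal axis) for the 43 members tested, by class, with the diagonal of equal values and dotted lines at 2-fold. Fads3 and Fabp4 lie on the diagonal, while 8 of the 14 synthesis members lie more than 2-fold under it and Mgll, Acacb and Cpt1a lie above it.

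Other genes of the pathway were taken from 4 lists drawn up beside the members. Of 94 tested, 9 rose and 23 fell, or 34.0% where 28.1% of all genes were called. In the synthesis list 2 rose and 4 fell of 17 (35.3% called). Mcat, which loads malonyl groups for mitochondrial fatty acid synthesis, rose 1.92-fold (707 ± 32.4 to 1359 ± 110.1, adjusted p 0.00463). The 3-hydroxyacyl-CoA dehydratases, which act in the elongation cycle, were divided. Ptpla fell 3.57-fold (633 ± 86.4 to 176 ± 23.1, adjusted p 0.00176) and Ptplad1 fell 1.59-fold (adjusted p 0.00908). Ptplad2, now called Hacd4, read 0, 4.12 and 0 in parental and 458, 372 and 403 in BrM (adjusted p 0.000639). Its parental level rests on 5 reads, and its gene overlaps Focad on the other strand.

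In the list of other uptake, activation and storage genes 4 rose and 4 fell of 27 (29.6% called, beside 28.1% of all genes). The partners of the droplet lipase were among those that fell. Abhd5, the coactivator of Pnpla2, fell 4.06-fold (5017 ± 1833 to 1188 ± 117, adjusted p 0.00239), and its inhibitor G0s2 fell 14.6-fold (885 ± 426 to 60.0 ± 29.7, adjusted p 0.00192). Activator and inhibitor of the same enzyme thus both fell, while Pnpla2 did not pass. Pnpla3, a lipase relative that binds Abhd5, rose 4.95-fold (21.2 ± 0.576 to 111 ± 26.9, adjusted p 0.00294). Slc27a4, a fatty acid transport protein with acyl-CoA synthetase activity, fell 2.03-fold (2186 ± 277 to 1075 ± 79.9, adjusted p 0.00428).

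The list of other oxidation genes had the most calls, with 2 rising and 12 falling of 32 (43.8% called, beside 28.1% of all genes). By direction, 6.25% rose and 37.5% fell, where 12.2% and 15.8% of all genes did. Decr1, the mitochondrial dienoyl-CoA reductase needed to oxidise polyunsaturated acids (chr4:15917240-15945507), read 588, 748 and 575 in parental and had no read in any BrM library, against 2095 reads in parental. Against a floor of 3 reads over the group it was at least 595-fold lower (adjusted p 6.1e-05). Cpt1c, the neuronal form of carnitine palmitoyltransferase, fell 31.5-fold (248 ± 86.4 to 7.72 ± 6.02, adjusted p 0.00164). Pdk4, the kinase that shuts pyruvate dehydrogenase when fat is burned, fell 24.0-fold (81.8 ± 19.6 to 2.48 ± 1.02, adjusted p 0.000674). The BrM levels rest on 21 reads for Cpt1c and 7 for Pdk4, and the log2 difference of Pdk4 ran from −5.07 to −3.52 over the alternatives. Abcd3, the peroxisomal transporter of acyl-CoA, fell 2.42-fold (5779 ± 530.0 to 2389 ± 284, adjusted p 0.00149).

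In the list of other regulators 1 rose and 3 fell of 18 (22.2% called, beside 28.1% of all genes). Ppard, the widely expressed receptor of the PPAR family, rose 2.42-fold (2191 ± 216 to 5293 ± 359, adjusted p 0.00111), while its partner Rxra fell 1.70-fold (3334 ± 134 to 1964 ± 171, adjusted p 0.00578). Of the 3 PPAR genes, Ppard thus rose and the other two did not pass. The liver X receptor gene Nr1h3 fell 2.57-fold (adjusted p 0.0179), a call lost in 5 of 18 alternatives. Prkaa2, a catalytic subunit of the AMP-activated kinase that inhibits acetyl-CoA carboxylase, fell 5.57-fold (154 ± 69.1 to 31.2 ± 27.9, adjusted p 0.0378), a call lost in 7 of 18, and the fall was 8.85-fold without BrM replicate 1.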

How the data were processed

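Polyadenylated RNA of 3 parental and 3 BrM libraries was analysed. The deposited signal values are normalised read counts made by the authors, and the submitters' processing notes name STAR, HTSeq and GRCm38 with no versions. The scaling tool, the annotation and the strand setting are not given in the sources used here, so reads of overlapping genes on opposite strands cannot be told apart. Dividing by the value of 1 read returned whole reads (within 0.01 read) for 100% of values. The table lists 24062 genes, 4879 at 0 in all libraries, and 27 symbols had turned into dates. The third column of each group matches the library without a number in its title.

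Genes with a mean of at least 10 were tested by limma 3.58.1 under R 4.3.3 after adding a pseudocount of 1 and taking log2, with an intensity trend, two-sided, Benjamini-Hochberg adjusted over all 13821 genes, threshold 0.05. With 3 libraries against 3, an exact permutation test cannot go below a two-sided p of 0.1, so none is given. Members and lists were chosen with earlier results of these data known. Values per library are given for called members and for the 2 members of highest mean in each role, and for other pathway genes up to 4 called genes per list by smallest p; members named beyond this are given by group or range, or were chosen after their values were seen. As alternatives, pseudocount, filter, scaling and moderation were varied, and array weights, a replicate block, BrM replicates 2 and 3 averaged, edgeR 4.0.16 and DESeq2 1.42.0 on the recovered reads, and leaving out each library were tried. Positions, exon lengths and 50-base windows shared between genes came from GENCODE M21 (GRCm38), which matched 160 of 160 genes looked up, and promoters from RefSeq (GRCm38.p6), which matched 37 of 45 members. The model was also run on counts simulated from the parental means. No library stood apart in them, so that run does not bear on the effect of BrM replicate 1. Figures were drawn with matplotlib 3.10.9. Results that need an item withheld for evaluation are not reported here.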

Additional observations from a re-analysis of the deposited data

How the results depend on the processing

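Of 773 values of the 43 members over 18 alternatives, 671 kept direction and call, and 15 lost the call (4 members). Another 46 gained it with the direction kept (19), and 41 changed sign, whether called or not (13). Fads3, Lpl, Acsl1, Acadm and Ppargc1a were called in every alternative, and Me1, Elovl5, Fabp4 and Cpt2 lost the call in some. All genes called, 3881, became 8485 with array weights, 2279 with BrM replicates 2 and 3 averaged, and 2191 to 6519 with 1 library left out. Members that rose, 2, became 4 by DESeq2, 10 with array weights and 1 to 8 with 1 library left out. Those that fell, 7, became 12, 20 and 4 to 19. Calls in synthesis, 3, became 5, 11 and 1 to 10, those in storage, 3, became 6, 10 and 2 to 9, and those in oxidation, 2, became 4, 8 and 1 to 7. With 1 library left out, each highest count was that without BrM replicate 1, and each lowest count of members was reached without parental replicate 2, in some classes also without another library. DESeq2 called 16 members, all 9 of limma among them, and edgeR 8, all but Me1. Over all genes tested, DESeq2 called 5075 and edgeR 3753, beside 3881 by limma, so the calls by DESeq2 grew over the whole table too.

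Deviations from the group means correlated at 0.30, −0.09 and 0.33 between parental and BrM libraries of equal replicate number. Between libraries of unlike number they correlated at −0.34 to 0.31. Deviations from a mean of 3 libraries depend on each other, so these values cannot settle whether replicate numbers pair the samples. With a replicate block 4040 genes and 13 members were called, 6 of them in storage. Upper quartile scaling moved the median log2 difference of all genes from −0.05 to 0.06 and the split from 1691 higher and 2190 lower to 2034 and 1825.

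Members that changed sign in some alternative are given as log2 differences, with the range over leaving out 1 library each. Fasn (0.12) was −0.19 with the BrM pair averaged and −0.23 to 0.75 with 1 library left out (called at 0.75, without BrM replicate 1). Acaca (−0.08) was 0.029 with upper quartile scaling, 0.11 by edgeR, 0.12 by DESeq2, 0.45 with array weights (called) and −0.40 to 0.48 (called at 0.48, without BrM replicate 1). Acacb (0.54) was −0.28 with array weights and −0.14 to 0.89. Scd2 (−0.27) was 0.0073 by edgeR, 0.0086 by DESeq2, 0.25 with array weights and −0.67 to 0.50. Fads2 (−0.33) was 0.43 by edgeR and by DESeq2, 0.85 with array weights (called) and −0.98 to 0.96 (called at 0.96). Acsl4 (0.01) was −0.089 with the pair averaged and −0.093 to 0.20, Plin2 (0.32) −0.086 to 0.80, and Acadl (0.25) −0.019 to 0.43. Mgll (0.61) was −0.17 with array weights and −0.19 to 1.06. Acadvl (−0.08) was 0.026 with upper quartile scaling, 0.0022 by edgeR, 0.024 by DESeq2, 0.087 with the pair averaged and −0.42 to 0.10 (called at −0.42). Hadhb (0.01) was −0.028 with array weights and −0.028 to 0.056. Ppara (−0.20) was −0.54 to 0.0033, and Pparg (−0.48) 0.049 with array weights and −0.996 to 0.12. Insig1 (−0.27), no member, was 0.26 by edgeR and by DESeq2, 0.68 with array weights (called) and −0.80 to 0.77 (called at 0.77).

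The cause of these changes was not tested. At depths of 29877087 to 46683735 reads per library few reads lie behind Cd36, Fabp3, Ppara and the BrM level of Fabp4, which rests on 24 reads over 3 libraries.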

Other observations

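Peroxisomes shorten very long and branched fatty acids before mitochondria oxidise them. Values of some genes of this route, chosen after they were seen, add to that of Abcd3 given above. The thiolase Acaa1a fell 1.62-fold in BrM (2097 ± 246 to 1308 ± 299.6, SD, n = 3, limma adjusted p 0.0411). Phyh, which starts the breakdown of phytanic acid, fell 1.97-fold (1145 ± 93.9 to 596 ± 177, limma adjusted p 0.0251). Each of these calls was lost in 7 of 18 alternatives. Acox2, the branched-chain oxidase, had a log2 difference of 0.91 (adjusted p 0.101) and the bifunctional enzyme Ehhadh one of 0.46 (adjusted p 0.162), and neither passed.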
